A study of Mus musculus with 16 samples.

Results

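The response to interferon alpha (IFNα) at 5 h was compared between macrophages and CD4 T cells of 1 mouse strain. The arrays were taken by their labels and number 8 of the 16 in the series, in 4 groups of 2. These are B10.Q macrophages 5 h after IFNα, B10.Q macrophages after vehicle, B10.Q CD4 T cells 5 h after IFNα, and B10.Q CD4 T cells after vehicle. Every donor was a male B10.Q/J mouse aged 7 weeks. That background has a naturally mutated Tyk2 gene, which vehicle and IFNα groups share, and no array with intact Tyk2 enters the comparison. IFNα was given under the skin at 10000 units. Macrophages came from the peritoneal cavity, sorted for ICAM2 and another surface antigen of macrophages, and T cells from the spleen, sorted as TCRB+ CD4+ CD8- cells. Each cell type thus has its own site, and effects of cell type and of site cannot be told apart. In each cell type 1 vehicle array dates from 2 h and the other from 5 h. Whether arrays of a group, or equal numbers in both cell types, stand for separate mice is not in the labels, so p-values measure the spread between arrays, which may be technical.

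Type I interferon binds a receptor made of IFNAR1 and IFNAR2, whose attached kinases Tyk2 and Jak1 phosphorylate transcription factors of the STAT family. Stat2 and Irf9 are parts of ISGF3, a complex that binds interferon-stimulated response elements (ISRE) in the promoters of antiviral genes. Macrophages and lymphocytes both carry the receptor, and they are known to induce partly separate sets of genes.

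The sorted cells carried the markers of their labels. Averaged over 17 peritoneal macrophage markers, the log2 intensity was 12.04 to 12.22 in macrophage arrays and 7.00 to 7.03 in T-cell arrays. Averaged over 14 CD4 T-cell markers it was 6.48 to 6.56 in macrophage arrays and 11.61 to 11.71 in T-cell arrays. All 4 macrophage titles bear a spleen code despite the peritoneal source, and the title of T-cell vehicle array 1 opens with a B-cell code. That array averaged 6.69 over 10 B-cell markers, and T-cell vehicle array 2 averaged 6.84. Of 4 CD8 T-cell markers, 3 lay below the median of T-cell vehicle array 1 and 2 below that of array 2, while Cd8b1 read 8.93 and 8.94. Of 8 NK-cell markers, 6 lay below the median in both, while Prf1 read 10.09 and 10.05. In both macrophage vehicle arrays 8 of 10 B-cell markers lay below the median, while Bank1 read 10.81 and 10.65. Array medians spanned 174 to 183 intensity units, and replicates correlated at r = 0.992 to 0.994 across genes. Both T-cell IFNα arrays of 2 h, which enter the statistical model but not the 5 h contrast, stood apart. Their macrophage marker means were 8.61 and 7.50. Lyz2, a lysozyme of myeloid cells, read 12.20 and 10.02 there, against 7.40 and 7.35 in T cells at 5 h and 7.34 and 7.67 with vehicle. In bulk samples, fewer responding cells and less RNA per cell cannot be told apart.

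At 5 h the macrophages had the stronger response in nearly all genes that differed between the cell types. The difference of responses, which is the macrophage change minus the T-cell change in log2 units, was positive for 27 of 11161 tested genes (0.242%) and negative for 1 (0.00896%), by limma at an adjusted p under 0.05. This makes 28 calls (0.251%), while 556 genes had an unadjusted p under 0.05 and 558 would be reached by chance. The 27 include antiviral genes, such as the GTPases Mx1 and Mx2 and the oligoadenylate synthetase family (Oasl2, Oas1a and Oas1b). They also include 4 of 8 Schlafen genes tested. The gene with the larger response in T cells was Neb, which encodes the muscle protein nebulin. The positive differences ran from 0.72 in Irf9 to 4.31 in Mx1, with a median of 1.65. The model held 12 B10.Q arrays, those of 2 h included. A model of only the 8 arrays compared gave a smaller median standard error (SE) of the difference, 0.126 against 0.16. It made 140 calls (1.27%), of which 127 were positive (1.15%) and 13 negative (0.118%), and all 28 genes were among them.

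**Figure D1:**
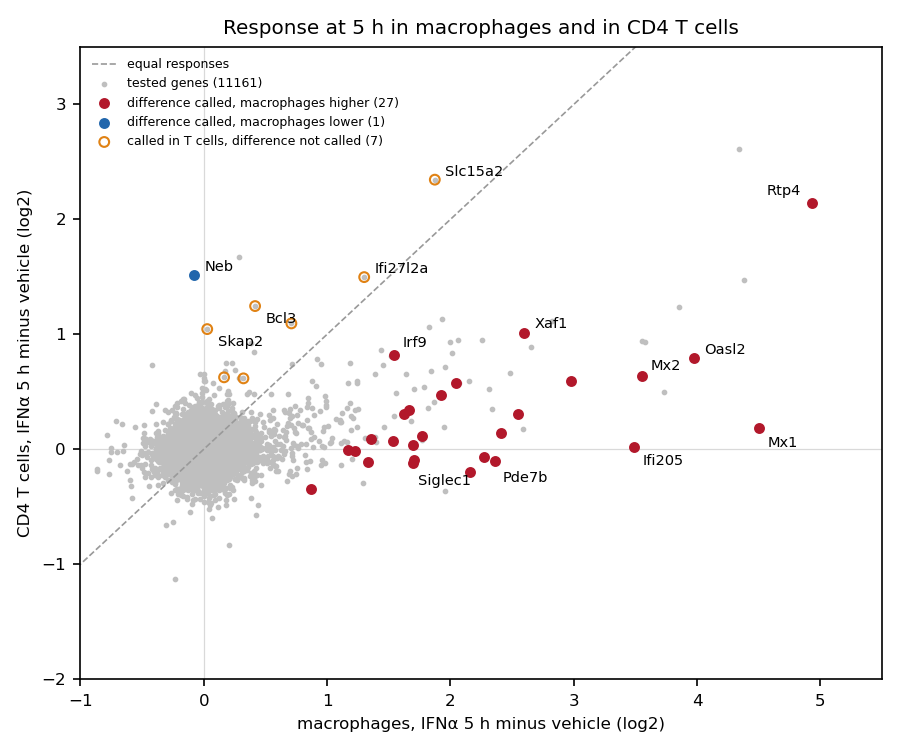
Response of each tested gene at 5 h in macrophages (horizontal axis) and CD4 T cells (vertical axis), each as the mean of 2 IFNα arrays minus the mean of 2 vehicle arrays (log2). The 27 red genes lie to the right of the dashed line of equal responses, 15 of them within 0.2 of 0 on the T-cell axis, and Neb in blue lies above that line. Over all tested genes the 5th to 95th percentile on the T-cell axis is -0.19 to 0.20.

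In the model of 12 arrays, 146 genes rose (1.31%) and 13 fell (0.116%) in macrophages at 5 h, in all 1.42%. In T cells 10 rose (0.0896%) and 0 fell by limma, with 454 genes at an unadjusted p under 0.05. The model of 8 arrays called 251 higher (2.28%) and 37 lower (0.336%) in macrophages, and 60 higher (0.545%) and 7 lower (0.0636%) in T cells. All 27 genes with a positive difference were among those that rose in macrophages, and 2 of them, Rtp4 and Irf9, had also risen in T cells. In the model of 8 arrays Oasl2, Gm12250, Xaf1 and Oas1b had risen in T cells as well. Their limma adjusted p there was 0.00836, 0.0168, 0.000194 and 0.00521. The T-cell change of the 27 was above 0 in 18 and below 0 in 9, and within 0.2 of 0 in 15. Over all tested genes the 5th to 95th percentile of the T-cell change was -0.19 to 0.20, so most genes lay that close to 0. Both macrophage IFNα arrays lay above both vehicle arrays in all 27, where 19.1% of all genes did so and 20.2% lay below. In T cells both IFNα arrays lay above both vehicle arrays in 14, against 21.1% of all genes, and below in 3, against 18.8%. The 27 genes were chosen on these same arrays, so their separation, above all in macrophages, is not independent evidence. Over the 146 genes that rose in macrophages, the median change was 1.20 in macrophages and 0.24 in T cells. The difference was above 0 in 142 of these 146 genes and below 0 in 8 of the 10 that rose in T cells. Each set was chosen on arrays that enter the difference, which favours these signs.

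The largest single difference was in the RNA of an antiviral effector. Whether Mx1, Oas1b or other effectors give working protein in this strain was not tested. Mx1, a GTPase that blocks influenza and related viruses, read 10.47 and 10.80 in macrophages with IFNα, against 6.15 and 6.12 with vehicle. It read 5.98 and 6.20 in T cells with IFNα, against 5.96 and 5.84 with vehicle. Only the treated macrophages were high, and all T-cell arrays lay below the lower quartile of their array. The difference was 4.31 ± 0.42 (SE, n = 2 arrays per group, limma adjusted p = 0.000716). Mx2, its relative, read 9.09 and 9.41 in macrophages with IFNα, against 5.67 and 5.72 with vehicle. It read 6.22 and 6.18 in T cells with IFNα, against 5.38 and 5.75 with vehicle. Both cell types had their IFNα arrays above their vehicle arrays, but the change was 3.56 ± 0.32 in macrophages and 0.63 ± 0.32 in T cells, a difference of 2.92 ± 0.45 (adjusted p = 0.0267). Both macrophage vehicle arrays of Mx1, Mx2, Ifi205 and Ms4a6b lay below the lower quartile, and array values near the bottom of the scale are compressed, so the sizes of these 4 differences are uncertain.

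Oasl2, an oligoadenylate synthetase-like protein, read 11.64 and 11.64 in macrophages with IFNα, against 7.58 and 7.75 with vehicle. It read 8.14 and 8.20 in T cells with IFNα, against 7.56 and 7.20 with vehicle. Treated and vehicle arrays did not overlap in either cell type, and the difference was 3.18 ± 0.47 (adjusted p = 0.0221). Oas1a (1.32 ± 0.22), a synthetase that makes the activator of RNase L, and its relative Oas1b (1.46 ± 0.25), known for resistance to flaviviruses, were called as well. Rsad2 (viperin), whose product terminates viral RNA chains, read 9.54 and 9.73 in macrophages with IFNα, against 5.90 and 5.90 with vehicle. It read 6.27 and 6.50 in T cells with IFNα, against 6.08 and 5.69 with vehicle. The treated macrophages stood far above the other arrays, yet its difference of 3.23 ± 0.62 had an adjusted p of 0.07, and 5.24e-06 in the model of 8 arrays. Of 35 antiviral effectors tested, 7 had a positive and 0 a negative difference, with a list median of 0.89 beside -0.00561 over all genes. The model of 8 arrays called 20 positive and 1 negative.

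A few effectors had large values in both cell types. Rtp4, a chaperone of membrane receptors, read 11.65 and 11.69 in macrophages with IFNα, against 6.68 and 6.79 with vehicle. It read 9.95 and 10.03 in T cells with IFNα, against 7.78 and 7.91 with vehicle. All IFNα arrays lay above all vehicle arrays, and the treated macrophages were the highest. Rtp4 rose 30.6-fold in macrophages (adjusted p = 8.77e-08) and 4.42-fold in T cells (adjusted p = 0.000603), a difference of 2.79 ± 0.27 (adjusted p = 0.000716). Xaf1, a promoter of apoptosis, rose by 2.60 ± 0.18 in macrophages and was at 1.02 ± 0.18 in T cells. Its T-cell change had an adjusted p of 0.0898, and 0.000194 in the model of 8 arrays. The difference was 1.58 ± 0.25 (adjusted p = 0.0291). Ifit1, which binds foreign RNA and is named here after its values were seen, read 10.28 and 10.63 in macrophages with IFNα, against 6.13 and 6.11 with vehicle. It read 9.09 and 9.68 in T cells with IFNα, against 6.67 and 6.87 with vehicle. This was the largest T-cell change among the 146 genes, 2.61 ± 0.43, but it was not called in T cells in the model of 12 arrays. The difference of Ifit1, 1.73 ± 0.61, was not called either (adjusted p = 0.703, and 0.00398 in the model of 8 arrays).

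**Figure D2:**
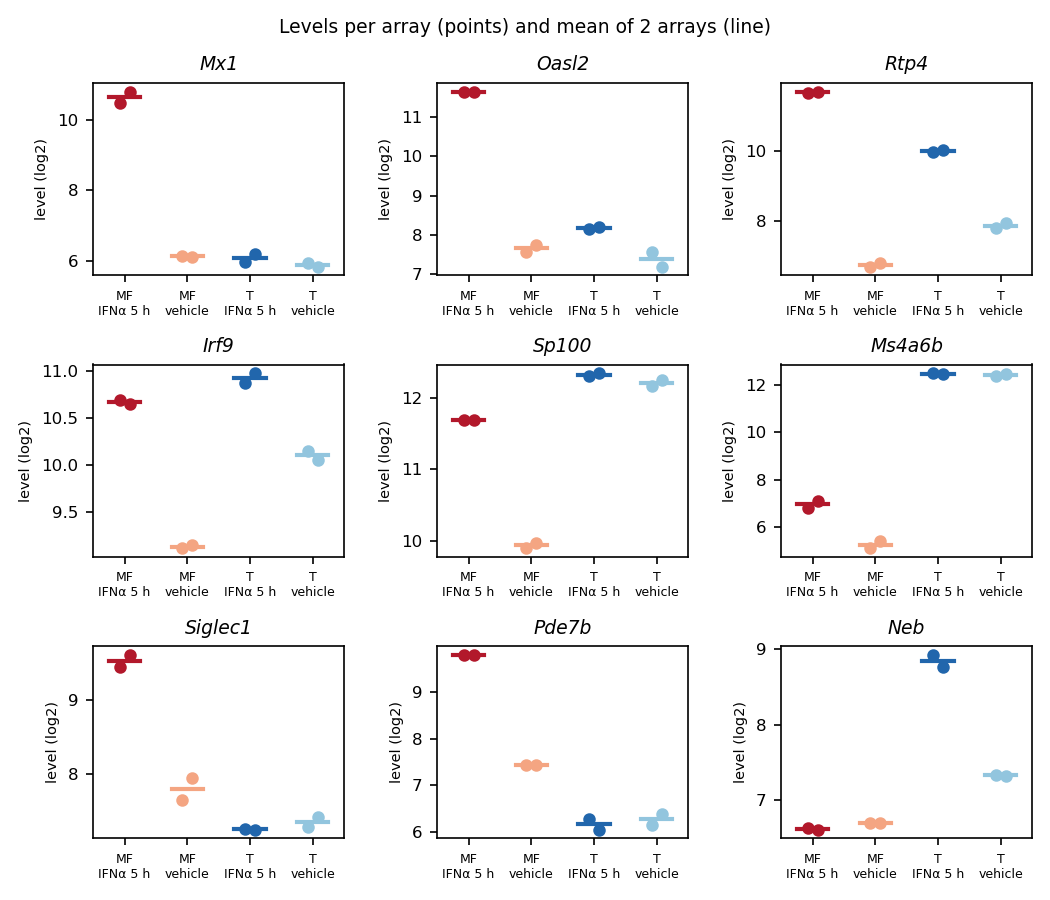
Log2 level of 9 genes in each array (points) with the mean of 2 arrays (line), macrophages (MF) in red and T cells (T) in blue, IFNα at 5 h left of vehicle. Mx1 and Siglec1 are high in treated macrophages only, Rtp4 and Irf9 are raised in both treated groups, Sp100 and Ms4a6b are highest in T cells with or without IFNα, and Neb is raised in treated T cells.

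Some of the 27 genes were already high in T cells without IFNα. The T-cell vehicle mean lay above the macrophage vehicle mean in 13 of the 27 genes, by over 1 log2 unit in 9. In 4 of them, Ifi209, Slfn1, Ms4a6b and Sp100, it lay above even the macrophage IFNα mean. The shares over all tested genes are not given here, so these counts only describe the 27. Sp100, a component of nuclear PML bodies, read 11.70 and 11.70 in macrophages with IFNα, against 9.90 and 9.97 with vehicle. It read 12.32 and 12.35 in T cells with IFNα, against 12.18 and 12.26 with vehicle. The T-cell arrays of both kinds were the highest, with a change of 1.77 ± 0.14 in macrophages and 0.12 ± 0.14 in T cells, and the difference was 1.65 ± 0.20 (adjusted p = 0.00483). Slfn1, a Schlafen gene linked to T-cell quiescence, read 11.02 and 11.25 in macrophages with IFNα, against 8.69 and 8.77 with vehicle. It read 11.57 and 11.57 in T cells with IFNα, against 11.48 and 11.38 with vehicle. Treated macrophages stayed below the T-cell arrays of either kind, and the difference was 2.27 ± 0.35 (adjusted p = 0.0283).

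Ms4a6b, a membrane protein found on T cells, showed the widest gap in starting level. It read 6.81 and 7.13 in macrophages with IFNα, against 5.14 and 5.42 with vehicle. It read 12.48 and 12.44 in T cells with IFNα, against 12.38 and 12.46 with vehicle. At vehicle the T-cell mean was 7.15 above the macrophage mean, and the difference of responses was 1.65 ± 0.26 (adjusted p = 0.0283). On the linear scale it was the 1 gene of the 27 with a negative difference, gaining 87.1 intensity units in macrophages and 145 in T cells, while the other 26 stayed positive. Its relative Ms4a6c differed by 2.36 ± 0.34 (adjusted p = 0.0194). These were the 2 of 6 MS4A genes called, in a list with a median of 1.25, and 5 were called in the model of 8 arrays.

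**Figure D3:**
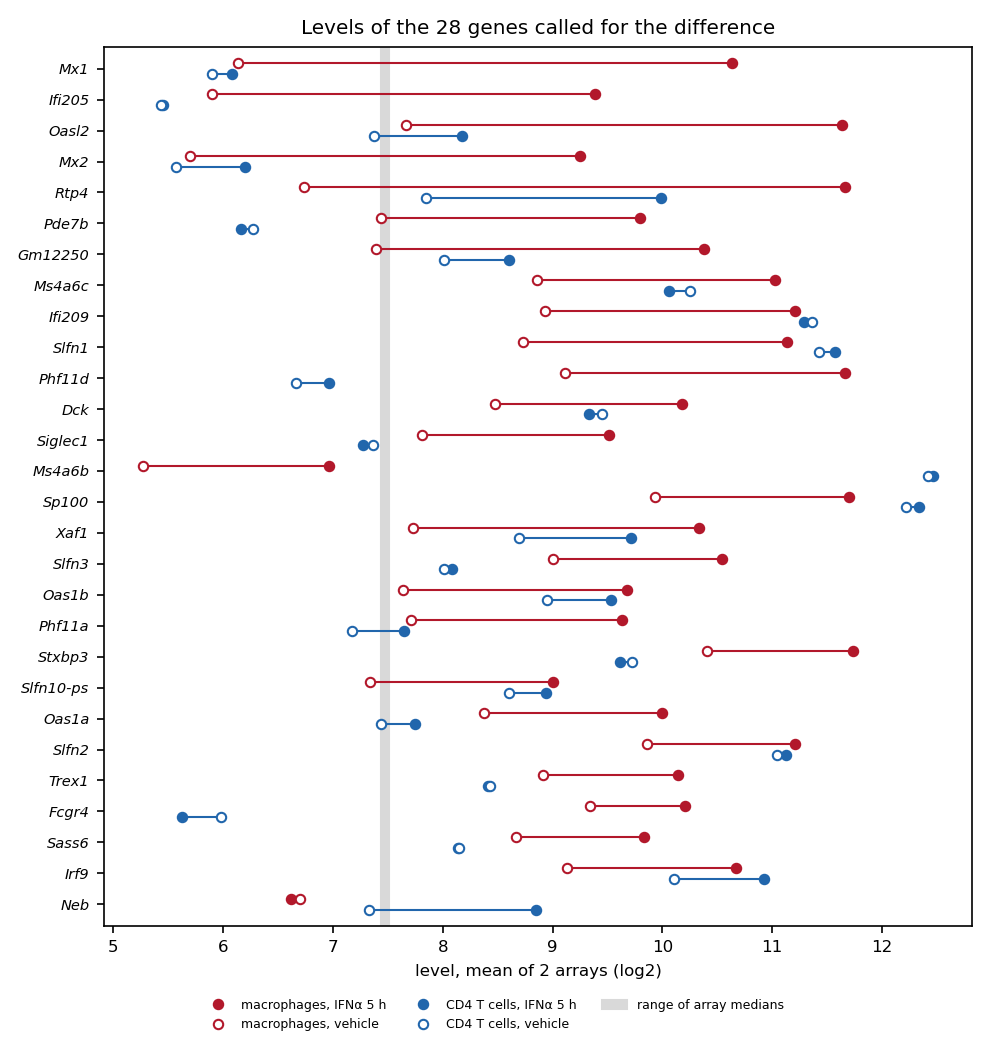
Mean log2 level of the 28 called genes with IFNα at 5 h (filled) and with vehicle (open), macrophages in red and T cells in blue, each the mean of 2 arrays, with the range of array medians as a grey band. The red pairs are spread wide in the 27 upper genes, the blue pairs lie close together at low, middle or high levels in most of them, and Neb in the bottom row shows the reverse.

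Families of the nucleic acid response had large positive medians. All 8 Schlafen genes tested had differences between 1.24 and 2.64, of which 4 were called (Slfn1, Slfn3, Slfn10-ps and Slfn2), and 8 in the model of 8 arrays. The family had a median change of 1.73 in macrophages and 0.19 in T cells. Probes may be shared between close relatives of this family, as in the Oas and Ifi200 genes, so single values are uncertain. Of the PYHIN family, which holds DNA sensors, 2 of 8 were called (median 1.42), and 5 in the model of 8 arrays. Ifi205 read 9.36 and 9.42 in macrophages with IFNα, against 5.82 and 5.98 with vehicle. It read 5.45 and 5.46 in T cells with IFNα, against 5.46 and 5.41 with vehicle. It stayed at the bottom of the scale in every T-cell array, and the difference was 3.47 ± 0.60 (adjusted p = 0.0406). Ifi209 read 11.20 and 11.22 in macrophages with IFNα, against 8.96 and 8.91 with vehicle. It read 11.33 and 11.26 in T cells with IFNα, against 11.38 and 11.35 with vehicle. Its T-cell level was high throughout, with no rise at 5 h, and the difference was 2.35 ± 0.38 (adjusted p = 0.0327). In the PHF11 cluster 2 of 3 genes were called, Phf11d (2.24 ± 0.34) and Phf11a (1.45 ± 0.25).

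Genes that degrade or supply nucleotides were among the calls. Trex1, the exonuclease that clears DNA from the cytosol, read 10.09 and 10.19 in macrophages with IFNα, against 8.88 and 8.94 with vehicle. It read 8.44 and 8.39 in T cells with IFNα, against 8.52 and 8.34 with vehicle. Its T-cell arrays overlapped, and the difference was 1.25 ± 0.17 (adjusted p = 0.0113). Dck, the kinase that salvages deoxycytidine, changed by 1.70 ± 0.17 in macrophages and -0.12 ± 0.17 in T cells, a difference of 1.82 ± 0.24 (adjusted p = 0.0113). Stxbp3, which regulates vesicle fusion (1.44 ± 0.23), and Sass6, which assembles centrioles (1.17 ± 0.20), were called too. Of the nucleic acid sensing list, Trex1 was the 1 of 12 called (median 0.88), and 8 were called in the model of 8 arrays. The RNA sensor Ddx58 had a difference of 1.46 ± 0.28 and an adjusted p of 0.0752, and Zbp1, a sensor of Z-form nucleic acid, had 1.56 ± 0.41 and 0.308.

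Siglec1 and Fcgr4 were the calls among Fc receptor and Siglec genes. Siglec1, the sialic acid receptor of macrophages, read 9.43 and 9.60 in macrophages with IFNα, against 7.66 and 7.96 with vehicle. It read 7.28 and 7.27 in T cells with IFNα, against 7.29 and 7.43 with vehicle. The treated macrophages stood alone, and the difference was 1.79 ± 0.18 (adjusted p = 0.000716). Fcgr4, an activating Fc receptor, read 10.30 and 10.12 in macrophages with IFNα, against 9.21 and 9.47 with vehicle. It read 5.66 and 5.60 in T cells with IFNα, against 6.00 and 5.96 with vehicle. Its T-cell values lay below the lower quartile, with IFNα below vehicle, and the difference was 1.22 ± 0.21 (adjusted p = 0.0389). These were the 2 of 15 Fc receptor, Siglec and CD300 genes called, in a list with a median of -0.01 and 8 members below 0, and 4 were called in the model of 8 arrays. Of all tested genes 0.251% were called, and 1.27% in the model of 8 arrays. Of 17 peritoneal macrophage markers 0 were called by limma, and 1 in the model of 8 arrays. Pde7b, which is on neither list and degrades cyclic AMP, read 9.80 and 9.79 in macrophages with IFNα, against 7.43 and 7.44 with vehicle. It read 6.27 and 6.05 in T cells with IFNα, against 6.15 and 6.39 with vehicle. Its T-cell arrays overlapped at a low level, and the difference was 2.46 ± 0.24 (adjusted p = 0.000716). Over the 27 genes, 7 lay below the median in all 4 T-cell arrays and 17 at or above it in all 4. The shares over all tested genes are not given here, so these counts only describe the 27.

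The promoters of 5 called genes are shown because they hold a core of the ISRE, the element that ISGF3 is known to bind. RefSeq windows (GRCm38.p6, 250 bases before to 50 after each gene's start) were matched by symbol for 21 of the 27 genes. The core GAAANNGAAA was searched on both strands, and 5 of 24 windows held it (20.8%), against 3.44% of all 32851 windows and 3.08% of those of tested genes. The window of Ifi205 is chr1:174031706-174032005 on the minus strand, that of Gm12250 chr11:58183593-58183892 on the plus strand, that of Oas1a chr5:120907476-120907775 on the minus strand, that of Phf11a chr14:59297473-59297772 on the minus strand and that of Fcgr4 chr1:171018676-171018975 on the plus strand. Each is printed 5′ to 3′ along its gene with the core in capitals, and in Oas1a a pair of matches overlaps.
Ifi205: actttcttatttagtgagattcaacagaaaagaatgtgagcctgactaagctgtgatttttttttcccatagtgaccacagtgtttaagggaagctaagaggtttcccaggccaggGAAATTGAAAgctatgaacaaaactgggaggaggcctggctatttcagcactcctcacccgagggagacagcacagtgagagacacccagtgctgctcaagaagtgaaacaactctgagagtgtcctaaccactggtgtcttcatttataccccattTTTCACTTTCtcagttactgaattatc
Gm12250: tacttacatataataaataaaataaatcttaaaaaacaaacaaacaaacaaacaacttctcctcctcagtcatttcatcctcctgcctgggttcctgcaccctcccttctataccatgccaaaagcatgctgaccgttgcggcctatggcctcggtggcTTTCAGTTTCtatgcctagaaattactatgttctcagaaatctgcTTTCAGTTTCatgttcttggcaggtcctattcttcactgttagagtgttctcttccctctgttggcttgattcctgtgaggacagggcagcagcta
Oas1a: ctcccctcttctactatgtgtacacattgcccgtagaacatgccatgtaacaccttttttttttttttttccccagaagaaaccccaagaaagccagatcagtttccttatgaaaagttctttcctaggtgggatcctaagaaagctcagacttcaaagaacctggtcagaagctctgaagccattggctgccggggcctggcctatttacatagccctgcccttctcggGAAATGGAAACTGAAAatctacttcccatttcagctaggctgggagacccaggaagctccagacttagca
Phf11a: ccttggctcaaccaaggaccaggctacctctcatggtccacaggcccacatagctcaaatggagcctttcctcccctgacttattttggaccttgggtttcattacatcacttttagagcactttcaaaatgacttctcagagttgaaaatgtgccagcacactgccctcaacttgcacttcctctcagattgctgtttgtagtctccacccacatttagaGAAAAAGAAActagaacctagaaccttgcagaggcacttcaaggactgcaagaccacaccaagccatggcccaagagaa
Fcgr4: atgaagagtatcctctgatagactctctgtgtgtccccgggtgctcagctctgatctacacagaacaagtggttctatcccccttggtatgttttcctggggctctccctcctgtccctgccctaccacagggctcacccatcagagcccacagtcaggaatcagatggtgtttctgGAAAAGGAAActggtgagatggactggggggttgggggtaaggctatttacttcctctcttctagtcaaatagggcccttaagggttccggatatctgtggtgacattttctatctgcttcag
Counted from the gene start, the cores begin at -134 and 23 in Ifi205, -91 and -46 in Gm12250, -20 and -14 in Oas1a, -29 in Phf11a and -73 in Fcgr4. Gm12250, an immunity-related GTPase, differed by 2.39 ± 0.42 (adjusted p = 0.044). The genes with a core differ in T-cell level, Ifi205 and Fcgr4 lying below the lower quartile in all 4 T-cell arrays. Of the 10 genes that rose in T cells, 6 had windows, and 0 of 9 held the core. The STAT element TTCNNNGAA lay in 12.5% of the windows of genes with a positive difference, against 8.3% of all windows, 6.73% of those of tested genes and 22.2% (2 of 9) of those of genes that rose in T cells. Those 2 windows both belong to Sbno2, so they stand for 1 of 6 genes (16.7%). Counted by gene, the share was 14.3% with a positive difference and 8.11% of tested genes.

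Interferon signalling genes had 1 call. Irf9, the DNA-binding part of ISGF3, read 10.70 and 10.65 in macrophages with IFNα, against 9.12 and 9.15 with vehicle. It read 10.87 and 10.98 in T cells with IFNα, against 10.15 and 10.06 with vehicle. It rose in both cell types, by 1.54 ± 0.09 in macrophages and 0.82 ± 0.09 in T cells, with a difference of 0.72 ± 0.12 (adjusted p = 0.0389). It was the 1 of 14 receptor and JAK-STAT genes called, in a list with a median of -0.052. The receptor chains Ifnar1 (-0.15 ± 0.15) and Ifnar2 (-0.01 ± 0.14) and the kinases Tyk2 (-0.02 ± 0.20) and Jak1 (0.00 ± 0.12) were not called. Stat2 missed the threshold at 1.46 ± 0.39, its adjusted p being 0.321, and 0.000265 in the model of 8 arrays. Irf7, which amplifies interferon production, was at 1.71 ± 0.32 with an adjusted p of 0.0699, having changed by 2.83 ± 0.23 in macrophages and 1.11 ± 0.23 in T cells. Usp18, the protease that removes Isg15 and damps the receptor, had a difference of 2.91 ± 0.61 and an adjusted p of 0.106, or 3.37e-05 in the model of 8 arrays.

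Other gene groups had 0 or 1 call each in the model of 12 arrays. Of all tested genes that model called 0.251%, and the model of 8 arrays 1.27%. Of 20 chemokines and cytokines, 0 were called (median 0.42), and 5 in the model of 8 arrays. Ccl2, which recruits monocytes, was at 1.29 ± 0.50, and Il15, which sustains memory T cells and NK cells, at 1.25 ± 0.30. MHC class I presentation had 0 of 15 called (median 0.15), with H2-T24 at 1.30 ± 0.31 and the peptide transporter Tap1 at 1.03 ± 0.25, and the model of 8 arrays called 2. TRIM proteins had 0 of 10 (median 0.37), the PARP family 0 of 11 (median 0.26) and ISG15 conjugation 0 of 5 (median 0.52). The model of 8 arrays called 2 TRIM, 3 PARP and 2 ISG15 conjugation genes. Among the GTPases of the GBP and IRG families, which act on pathogen vacuoles, Gm12250 was the 1 of 11 called (median 0.58), and 3 in the model of 8 arrays. In the cell death list Xaf1 was the 1 of 14 called, or 4 in the model of 8 arrays, and Mlkl, the executioner of necroptosis, missed the threshold at 1.09 ± 0.20 (adjusted p = 0.066). MHC class II genes (median -0.11), immediate early genes (0.023), cell cycle genes (0.079) and ribosomal proteins (-0.10) lay near 0, with 0 called in each by limma and 0 in the model of 8 arrays. In the other lists 1 of 8 IRF factors (Irf9), 0 of 15 genes of negative feedback, 0 of 12 of glucocorticoid and metallothionein stress, 0 of 22 of T-cell homing and activation, 0 of 12 of cholesterol handling and 0 of 8 of alternative activation were called by limma. In the same order the model of 8 arrays called 3 higher and 1 lower, 1, 1, 0, 0 and 1. Of the circadian clock list 0 of 14 were called (median 0.23). Nr1d1, a clock repressor, read 11.16 and 10.98 in macrophages with IFNα, against 9.64 at 2 h and 11.07 at 5 h with vehicle, and each of these vehicle times is 1 array.

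**Figure D4:**
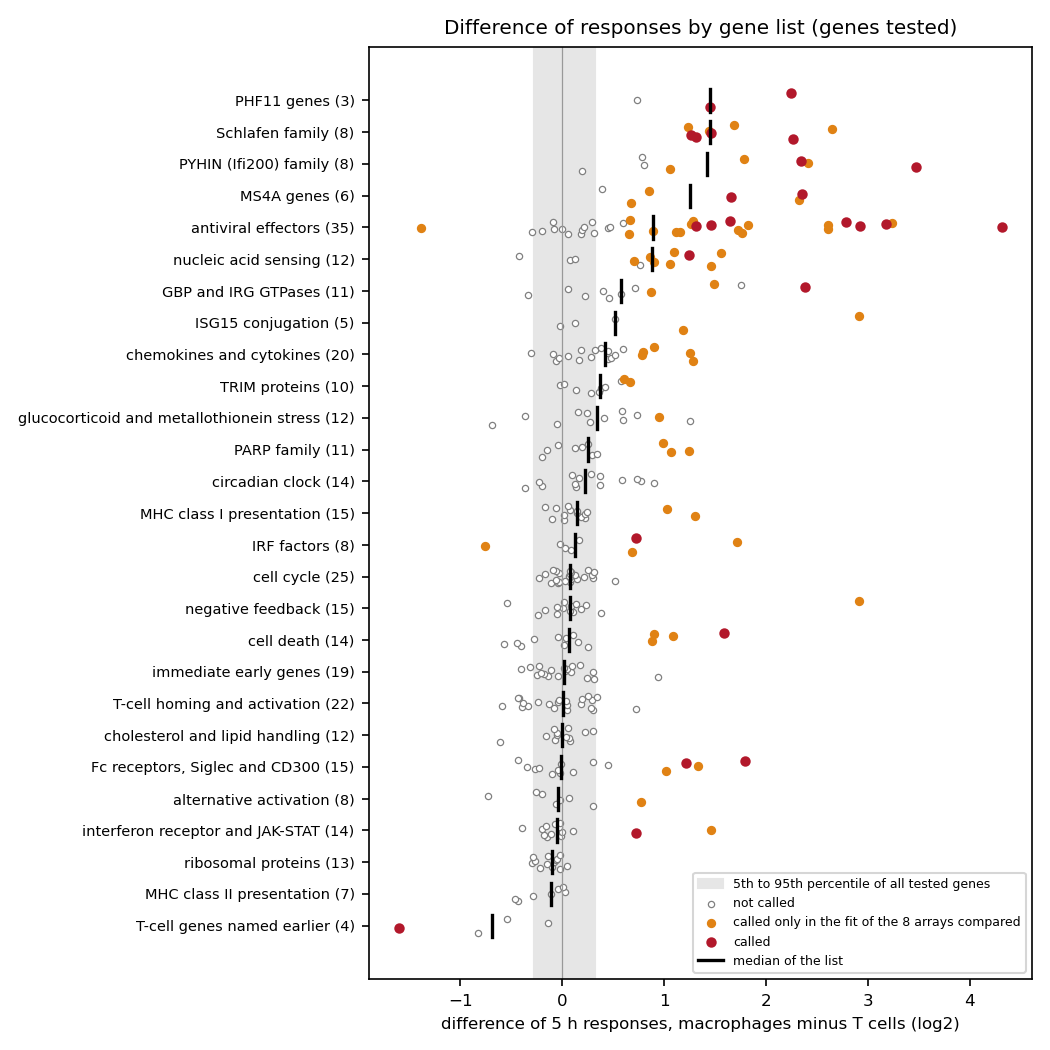
Difference of 5 h responses (macrophages minus T cells, log2) of the tested genes of each list, 1 point per gene, with the list median as a black bar. Red genes were called, orange ones only in the model of 8 arrays, and the grey band spans the 5th to 95th percentile of all tested genes. Schlafen, PHF11, PYHIN and MS4A genes have their medians farthest to the right, and the list of T-cell genes named earlier alone has one left of the band.

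A few genes passed the test in T cells and not in macrophages. Neb read 6.63 and 6.61 in macrophages with IFNα, against 6.70 and 6.70 with vehicle. It read 8.93 and 8.77 in T cells with IFNα, against 7.34 and 7.32 with vehicle. Only treated T cells were raised, 2.87-fold over vehicle, and the difference was -1.60 ± 0.14 (adjusted p = 0.000716). Skap2, an adaptor of immune cell adhesion, read 10.33 and 10.41 in macrophages with IFNα, against 10.35 and 10.33 with vehicle. It read 8.81 and 8.51 in T cells with IFNα, against 7.56 and 7.67 with vehicle. It rose by 1.05 ± 0.14 in T cells (adjusted p = 0.0126), and its difference of -1.02 ± 0.19 had an adjusted p of 0.0681. Bcl3, a nuclear IκB protein, rose by 1.25 ± 0.17 in T cells (adjusted p = 0.0148), with a difference of -0.83 ± 0.24 that was not called (adjusted p = 0.414). Socs3, a feedback inhibitor of cytokine receptors, was at 0.38 ± 0.20 in macrophages and 0.92 ± 0.20 in T cells. The list of Neb, Bcl3, Socs3 and Pim1 had a median difference of -0.69 and 1 of 4 called. At 2 h the difference of Bcl3 was -0.92 ± 0.24, which was not called (limma adjusted p = 0.448). These genes were listed because earlier results of these data named them, so the list is not independent evidence.

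Of the 10 genes that rose in T cells, 5 had also risen in macrophages, namely Rtp4, Irf9, Slc15a2, Ifi27l2a and Lgals3bp. Slc15a2, a peptide transporter, rose by 1.87 in macrophages and 2.35 in T cells, a difference of -0.47 with a 95% interval of -1.47 to 0.52. Ifi27l2a, a mitochondrial interferon-induced protein, rose by 1.30 in macrophages and 1.50 in T cells, a difference of -0.20 with an interval of -0.73 to 0.33. Both intervals hold 0, which does not show that the responses were equal. Ifitm3, a blocker of viral entry named after its values were seen, read 13.28 and 13.23 in macrophages with IFNα, against 13.00 and 12.94 with vehicle. It read 7.07 and 7.49 in T cells with IFNα, against 5.34 and 5.88 with vehicle. It was near the top of the scale in every macrophage array, and its difference of -1.38 ± 0.47 had an adjusted p of 0.595, and 0.0154 in the model of 8 arrays.

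Whether the difference at 5 h was another than at 2 h was tested as the change between the times, in which the vehicle arrays cancel. Of 11161 genes 2 were called (0.0179%), 1 in each direction (0.00896%). Neb read 7.53 and 7.30 in T cells at 2 h and 8.93 and 8.77 at 5 h, and its difference moved by -1.43 ± 0.14 (adjusted p = 0.00343). Pde7b read 7.75 and 7.56 in macrophages at 2 h and 9.80 and 9.79 at 5 h, and its difference moved by 2.05 ± 0.24 (adjusted p = 0.0105). Their differences at 2 h were -0.17 ± 0.14 in Neb and 0.41 ± 0.24 in Pde7b. Mx1 was at 4.30 ± 0.42 at 2 h and 4.31 ± 0.42 at 5 h. Rtp4 was at 1.22 ± 0.27 at 2 h and 2.79 ± 0.27 at 5 h, with an adjusted p of 0.097 for the movement, and its T-cell arrays read 11.43 and 10.95 at 2 h and 9.95 and 10.03 at 5 h. The T-cell change of Mx2 was 2.65 ± 0.32 at 2 h and 0.63 ± 0.32 at 5 h. In Oasl2 these were 2.07 ± 0.33 and 0.80 ± 0.33, and in Xaf1 2.05 ± 0.18 and 1.02 ± 0.18. Other called genes had small T-cell changes at both times, such as Siglec1 (0.06 ± 0.12 and -0.09 ± 0.12) and Dck (-0.25 ± 0.17 and -0.12 ± 0.17). The macrophage markers of the T-cell arrays of 2 h move with this contrast, and their part in it was not tested. Without T-cell IFNα array 2 of 2 h the count of 2 became 579, without T-cell array 1 of 2 h 9, and without macrophage arrays 1 or 2 of 2 h 11 or 6. Without macrophage array 1 or 2 or T-cell array 2 of 5 h it was 1, with Pde7b no longer called. With only the groups compared it was 0 by limma, and 832 genes had an unadjusted p under 0.05.

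**Figure D5:**
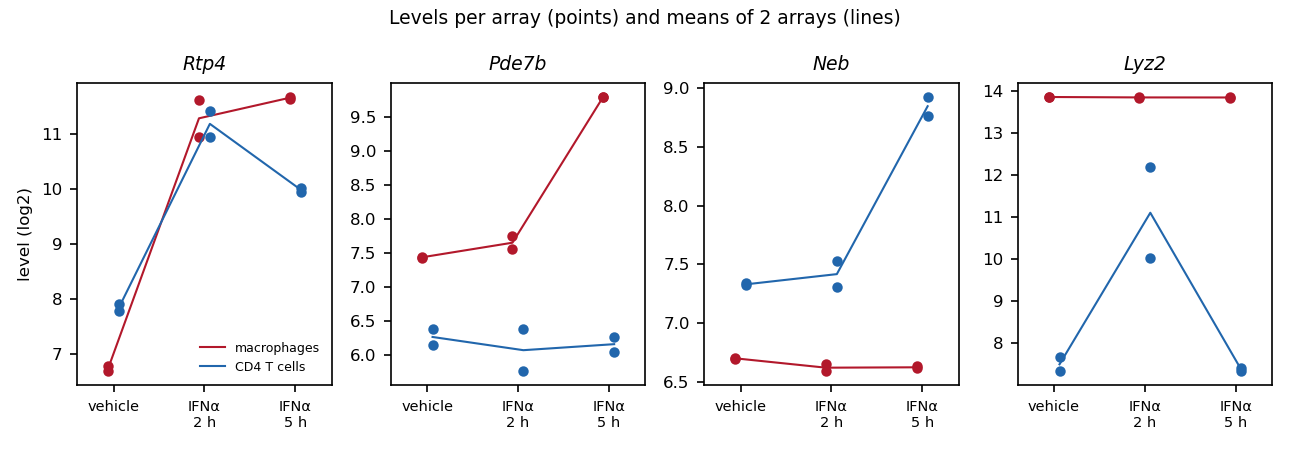
Log2 level of 4 genes with vehicle and 2 h and 5 h after IFNα, points for arrays and lines for means of 2, macrophages in red and T cells in blue. Rtp4 of T cells is lower at 5 h than at 2 h, Pde7b of macrophages and Neb of T cells are raised at 5 h, and Lyz2 of T cells is high in both arrays of 2 h.

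The count depended on both arrays of each group being present. Leaving out any 1 of the 8 arrays left 6 to 11 calls, and vehicle arrays of 5 h alone left 5, namely Mx1, Rtp4, Pde7b, Siglec1 and Neb. The sizes moved by amounts that varied between genes. Over all alternatives the difference was 2.91 to 3.36 in Oasl2, 2.27 to 2.38 in Ifi209 and 2.15 to 2.38 in Slfn1. Wider ranges were 1.11 to 1.82 in Ms4a6b, 1.89 to 2.60 in Ms4a6c and 1.94 to 2.54 in Phf11d. Where a group had 1 array left, that array is assumed to vary as the other groups do.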

How the data were processed

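Sorted-cell RNA was hybridised to Affymetrix Mouse Gene 1.0 ST arrays. The deposited values are intensity values on a linear scale for 24922 probe sets, made by the authors with Affymetrix Power Tools and RMA, per the submitters' processing notes. Joint or separate normalisation of the arrays is not given in the sources used here. Arrays have no read depth, and their number limits the precision.

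The log2 of each deposited intensity was taken, with no further scaling. Probe sets with 1 gene symbol (21425, beside 1399 with several and 2098 with none) were kept. A gene took its probe set of highest mean over all 16 arrays of the series. A gene was tested when at least 2 of 12 B10.Q arrays lay above their own median. A limma model (version 3.58.1, R 4.3.3, lmFit followed by eBayes) held 6 groups, with two-sided p-values adjusted by Benjamini-Hochberg over 11161 genes. "Called" means an adjusted p under 0.05, and ± gives the SE.

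Members, lists and alternatives were chosen with earlier results of these data known. Named genes were the 15 largest positive and negative differences among calls (with fewer than 5 calls, also the 6 of smallest p), the 3 largest of each of 27 lists, genes called in both cell types or between times, and a set of signalling genes (Ifnar1, Ifnar2, Tyk2, Jak1, Stat2, Irf7 and Irf9). Calls outside that rule (Slfn3, Oas1b, Stxbp3, Slfn10-ps, Oas1a, Slfn2 and Sass6) were named after their values were seen. Alternatives were other filters, scalings, variance models, probe sets and array sets, a replicate block and each array left out. The procedure was tested on simulated data.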

Additional observations from a re-analysis of the deposited data

Results flagged for a closer look

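Each of the 28 called genes had responses that differ between the cell types by the test of the difference itself (limma, log2, macrophages minus T cells, 2 arrays per group). The largest were those of Mx1 (4.31), Ifi205 (3.47), Oasl2 (3.18), Mx2 (2.92), Rtp4 (2.79), Pde7b (2.46), Gm12250 (2.39), Ms4a6c (2.36) and Ifi209 (2.35). Next came Slfn1 (2.27), Phf11d (2.24), Dck (1.82), Siglec1 (1.79), Ms4a6b (1.65), Sp100 (1.65), Xaf1 (1.58), Slfn3 (1.46) and Oas1b (1.46). The smallest positive ones were those of Phf11a (1.45), Stxbp3 (1.44), Slfn10-ps (1.32), Oas1a (1.32), Slfn2 (1.27), Trex1 (1.25), Fcgr4 (1.22), Sass6 (1.17) and Irf9 (0.72). Neb (-1.60) had the negative one. The change of the difference from 2 h to 5 h was called for Neb (-1.43) and Pde7b (2.05). Groups of 2 arrays allow no test for a single extreme array.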

How the results depend on the processing

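The 28 calls for the difference became 8 with quantile normalization, 17 with a trended and robust variance, 14 with all 16 arrays, 140 with only the groups compared, 5 with vehicle arrays of 5 h alone, 54 without both T-cell IFNα arrays of 2 h (chosen after seeing the data) and 6 to 11 with 1 array left out. No other setting moved that count by over 1.5 times. The arrays added in the setting of all 16 are macrophages of Ifnar1 knockout mice aged 6 weeks. All 28 genes kept their sign in each alternative that tested them, and Mx1, Rtp4, Pde7b, Siglec1 and Neb also their call; 18 genes lost it whichever of the 8 arrays was left out. Macrophage calls (159) became 288 with only the groups compared, 64 with vehicle of 5 h alone and 72 to 97 with 1 array left out. T-cell calls (10) became 67, 1 and 3 to 4 in the same settings, 6 with all 16 arrays and 27 without both T-cell arrays of 2 h. Calls for the change from 2 h to 5 h (2) became 1 with the filter at the 70th percentile and 1 to 579 with 1 array left out. By limma they were 0 with the filter in both cell types (949 genes at an unadjusted p under 0.05) and 0 with only the groups compared (832). The cause was not tested.

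The replicate block gave 31 calls for the difference, 27 of them among the 28, with 164 in macrophages, 9 in T cells and 2 for the change between times. Deviations of equal-numbered arrays correlated at 0.131 between IFNα and vehicle in macrophages, 0.14 in T cells, and -0.137 between the IFNα arrays of 5 h of macrophages and T cells. They were 0.147 between the vehicle arrays of both cell types and 0.156 between those of 2 h. With 2 arrays per group the numbers were not taken as pairs. With the T-cell IFNα numbers crossed, the block gave 32 calls.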

Other observations

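Just inside the threshold lay Gm12250 (2.39 ± 0.42, adjusted p = 0.044) and Slfn10-ps (1.32 ± 0.24, adjusted p = 0.0479), and just outside Slc52a3, a riboflavin transporter (0.81 ± 0.15, adjusted p = 0.0557), and Mlkl (1.09 ± 0.20, adjusted p = 0.066). Probe sets without a single gene symbol were not part of the comparison. With every probe set tested, 3 of 788 with several symbols and 1 of 1054 with none had a positive difference at 5 h.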
